A study of Mus musculus with 21 samples.

Results

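Bulk RNA-seq of quadriceps muscle was compared between untrained mice sacrificed 6 h after an exhaustive treadmill bout and sedentary mice. The 6 libraries, 3 for each group, were chosen by their labels from the 21 libraries of the series, and the 11798 of 53738 gene symbols with a mean of at least 1 TPM (transcript abundance scaled for transcript length and for the total of each library) over these 6 libraries were tested. All animals were male wild-type C57/Bl6 mice, 22 to 26 weeks old at sacrifice. Sedentary mice neither trained nor exercised. Untrained mice had no running wheel and ran on the treadmill, after acclimatisation, with stepwise increases in speed until exhaustion. They were therefore naive to endurance training but not to the treadmill. Trained mice, used below only for comparison, had wheels for 12 weeks and then followed the same treadmill protocol to exhaustion, without a rest period. The study reports better performance of trained mice in such tests, so the distance run may have differed. The hour of sacrifice and the feeding state of each group are not given in the sources used here. Whole tissue was sequenced, so that fewer cells of a type and less RNA per cell cannot be told apart. The defining genes of skeletal muscle were abundant in every library. Muscle creatine kinase (Ckm) was between 14850 and 17800 TPM and skeletal actin (Acta1) between 16390 and 19670 TPM, and 0 of 9 muscle identity genes were called in either direction.

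An exhaustive run depletes glycogen, loads sarcomeres, raises temperature and calcium, and produces oxidants in the working fibres. Muscle answers with immediate early transcription factors, heat shock proteins that hold or refold damaged proteins, and proteins that repair the Z-disc, and with the coactivator PGC-1alpha, which drives mitochondrial gene programmes. Adrenal glucocorticoids rise with exhaustive exercise and act on muscle as well. The hours after a bout are the time at which many of these transcripts are known to be high.

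Log2(TPM + 0.5) values were tested with limma, and a call required both an adjusted p under 0.05 and at least a 1.5-fold change (0.585 on the log2 scale). At 6 h, 412 genes were higher and 99 lower in untrained compared to sedentary muscle. These are 3.49% and 0.839% of the tested genes (4.33% in both directions together), the background for every list below. Over all tested genes, 2644 had an unadjusted p below 0.05. The rises were also the larger changes. Of the genes called up, 184 rose at least 2-fold, 51 at least 4-fold and 25 at least 8-fold, whereas 24 of the genes called down fell at least 2-fold and 5 at least 4-fold. Rescaling the libraries without the mitochondrial genome and the 10 most abundant genes shifted the split to 376 genes up and 183 down. Protein-coding genes made up 342 of the rises and 71 of the falls. In 407 of the 412 genes called up all 3 exercised libraries lay above all 3 sedentary libraries, an order that 11.8% of all tested genes had, and in 97 of the 99 called down they lay below, which 8.66% had. Of the genes called up, 59 averaged less than 1 TPM in sedentary muscle. Such genes entered the test only because they were high after exercise, and their fold changes are understated by the added 0.5 TPM. Likewise, 16 of the 99 genes called down averaged less than 1 TPM in exercised muscle and entered only through the sedentary libraries.

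The spread between libraries was largest in the exercised group. The median SD of a gene on the log2 scale was 0.167 in untrained 6 h muscle and 0.127 in sedentary muscle, and between 0.0845 and 0.117 in the other groups. The model took its spread from 19 libraries of 7 groups. With only the 6 libraries in the model, 187 genes were called up and 43 down, which contain 178 and 36 of the calls above. When each of the 6 libraries was left out in turn, 253 of the rises and 41 of the falls were called every time, and 0 called genes changed sign.

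**Figure D1:**
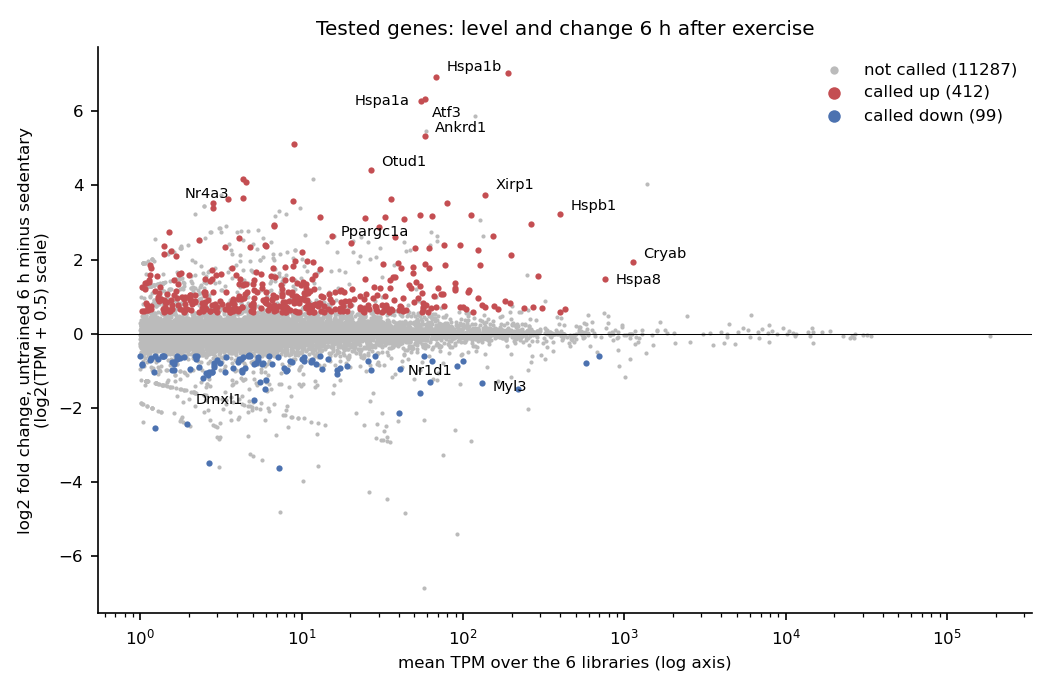
Log2 fold change (untrained 6 h minus sedentary, on the log2(TPM + 0.5) scale) against the mean TPM over the 6 libraries (log axis), 1 point for each of 11798 genes. Among the 412 genes called up, Hspa1b reaches 6.93, exceeded only by Gm20481, the non-coding gene over Hspa1a, at 7.04, while grey points far from 0 are genes whose libraries vary too much to be called.

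Heat shock genes included the largest rises among protein-coding genes. Hspa1b, an inducible HSP70 chaperone (GRCm39, chromosome 17, 35175412 to 35178214), was at 0.501, 0.608 and 0.659 TPM in the sedentary libraries and at 102, 181 and 124 TPM in the exercised libraries. The groups did not overlap, and the log2 fold change was 6.93 ± 0.40 (n = 3 each, adjusted p = 3.89e-07). Here and below, ± after a log2 value is the SE of the model, which took its spread from 19 libraries. Its near-identical neighbour Hspa1a gave 0.725, 0.888 and 1.15 TPM against 89.0, 151 and 108 TPM. Reads of these 2 copies can be assigned to either, and a long non-coding RNA on the opposite strand of Hspa1a, Gm20481, cannot be told apart from it in libraries that do not mark strand. Dnajb1, the cochaperone that hands substrates to HSP70, rose from between 0.753 and 1.32 TPM to between 14.3 and 20.2 TPM (log2 fold change 3.59 ± 0.21, adjusted p = 4.41e-07). All 3 genes averaged under 1 TPM in sedentary muscle and passed the expression filter only through the exercised libraries.

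In the whole HSP70 and HSP90 list, 15 of 24 tested members were called up and 0 down, against 3.49% and 0.839% of all tested genes. The remaining 9 did not pass, and the median log2 fold change of the 24 was 1.02, beside 0.0164 over all tested genes. Hsp90aa1, the inducible HSP90, was at 9.13, 16.2 and 12.0 TPM in sedentary and at 109, 160 and 174 TPM in exercised muscle (3.52 ± 0.30). Bag3, which links HSP70 to the selective autophagy of damaged filamin, went from between 22.2 and 27.1 TPM to between 77.1 and 99.9 TPM (1.89 ± 0.14). Dnaja4, an HSP70 cochaperone, was uniform within the exercised group, at 64.2, 63.1 and 66.3 TPM, against 18.6 ± 1.7 TPM (SD, n = 3) in sedentary muscle. The most abundant member, the constitutive chaperone Hspa8, had 292, 621 and 317 TPM in sedentary and 751, 1511 and 1072 TPM in exercised muscle. Sedentary replicate 2 stood apart here, and the adjusted p of Hspa8 rose from 0.00701 to 0.135 with only the 6 libraries in the model, where 13 of the 24 members were still called up. Leaving out single libraries gave between 13 and 17 members.

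Small heat shock proteins, which bind unfolding filaments and titin without ATP, were called up in 5 of 7 cases. Cryab, alpha-B crystallin, was the highest of these. It had 401, 497 and 512 TPM in sedentary and 1706, 1982 and 1708 TPM in exercised libraries, and its gain in TPM exceeded that of every other named gene called up (log2 fold change 1.94 ± 0.19, adjusted p = 2.6e-05). Hspb1 (HSP25) went from 71.1, 73.7 and 85.0 TPM to 618, 827 and 719.7 TPM. Hspb1 changed by 3.22 ± 0.23, Hspb7 by 2.12 ± 0.26 and Hspb8, the partner of Bag3, by 1.55 ± 0.13. Hspb6 was called close to the threshold (0.59 ± 0.12, adjusted p = 0.00799) and lost its call with only the 6 libraries in the model (adjusted p = 0.0629) and, by its size, without sedentary replicate 1 or untrained 6 h replicate 1. Hspb2 (0.36 ± 0.10, adjusted p = 0.0349) and Hspb3 (0.37 ± 0.11, 0.0431) had adjusted p below 0.05 but stayed under the 1.5-fold threshold.

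Heat shock factors bind inverted repeats of nGAAn in promoters. Promoter windows around transcription starts (RefSeq, GRCm38.p6) were searched on both strands for the heat shock element, that is, 3 adjoining units in alternating direction, in either of 2 spellings that can overlap each other. The element occurred in 0.603% of 32851 windows and in 54 of 8145 tested genes with a window (0.663%). Of 21 list members with a window, 4 held them (19.048%). Among those called up, which number 13, Hspe1 and Hsph1 did (15.385%), and the other members that held it were not called. Over all genes called up the share was 3 of 292 (1.027%). Hspe1 and Hsph1 are shown because they are the called members whose start carries the element. Both were picked after their values were seen. Hspe1, the cochaperonin of mitochondrial HSP60, was at 45.6, 44.5 and 50.8 TPM in sedentary and at 95.2, 108 and 96.2 TPM in exercised muscle, and Hsph1, an HSP70 exchange factor, at between 17.9 and 18.5 TPM and at 42.8, 52.8 and 69.9 TPM. Capitals mark the match.
Hspe1, chr1:55088051-55088079, plus strand: acggtccgTTCTAGAACCTTCcggaaggc
Hspe1, chr1:55088056-55088084, plus strand: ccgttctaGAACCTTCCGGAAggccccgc
Hsph1, chr5:149636280-149636308, minus strand: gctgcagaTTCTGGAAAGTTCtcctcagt
The first and second overlap, and the same bases lie in the window of Hspd1 on the opposite strand. Of the small heat shock genes with a window, 0 of 5 held the element.

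**Figure D2:**
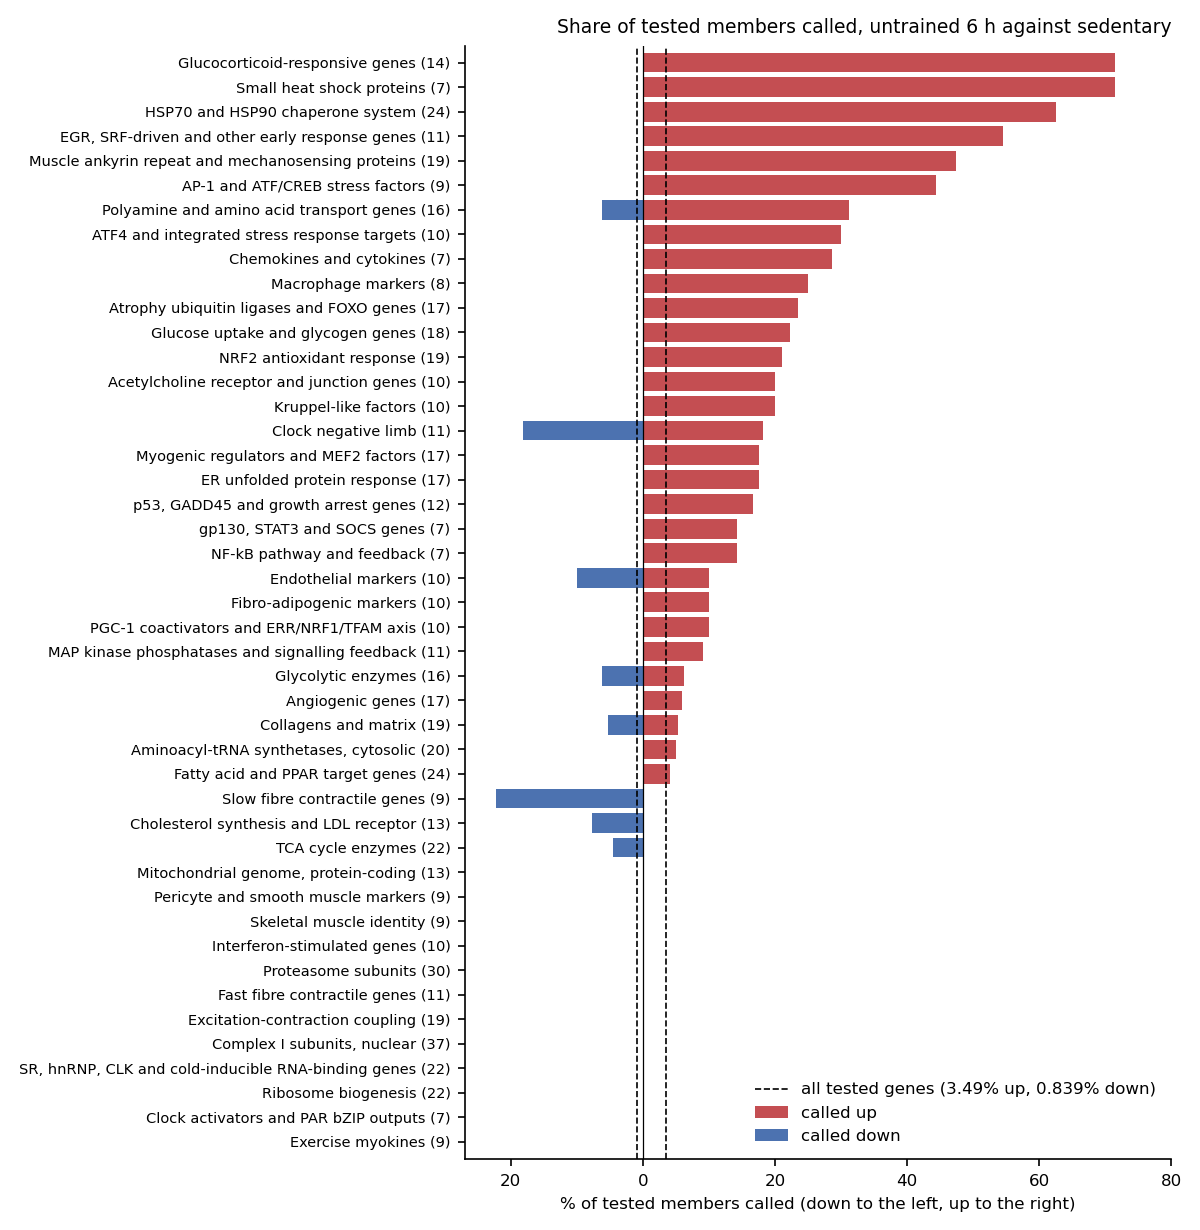
Percent of the tested members of each gene list called up (right, red) or down (left, blue) in untrained 6 h against sedentary muscle, with the number tested in brackets and dashed lines at the shares of all tested genes (3.49% up, 0.839% down). Only lists with at least 7 tested members are drawn. Glucocorticoid-responsive genes (10 of 14), small heat shock proteins (5 of 7) and the HSP70 and HSP90 list (15 of 24) stand at the top.

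Immediate early genes encode transcription factors made within minutes of a stimulus from messages that decay fast. Several were still above the sedentary level at 6 h. Atf3, a stress-induced repressor of the ATF/CREB family, was at 0.744, 0.948 and 0.829 TPM in sedentary and at 109, 149 and 68.9 TPM in exercised libraries (log2 fold change 6.28 ± 0.55, adjusted p = 7.38e-06). It also passed the filter only through the exercised libraries. Fos, a subunit of the AP-1 dimer, had 0.320, 0.588 and 3.44 TPM before and 8.51, 18.5 and 8.77 TPM after exercise (2.94 ± 0.50, adjusted p = 0.00211). Sedentary replicate 3 was high for Fos, and likewise for Egr1 with 3.10 TPM against 0.489 and 0.627 TPM in the other two. Egr1 after exercise ranged from 5.25 to 12.7 TPM. In the AP-1 and ATF list, 4 of 9 members were called up, the others being Jun (1.00 ± 0.18) and the cyclic AMP repressor gene Crem (1.00 ± 0.19). In the list of EGR and other early response genes 6 of 11 were called up, led by the matricellular gene Ccn1 (2.44 ± 0.31) and Egr1 (2.34 ± 0.57), followed by the growth suppressor Btg2 (1.78 ± 0.27).

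These early gene calls leaned on the spread shared with the other groups. With only the 6 libraries in the model, 1 member was called in each list, Atf3 and Ccn1, while Fos had an adjusted p of 0.0959, Egr1 of 0.125, Jun of 0.108, Crem of 0.119 and Btg2 of 0.0567. Egr1 was also lost when sedentary replicate 1 (adjusted p = 0.0827), sedentary replicate 2 (0.0797) or untrained 6 h replicate 2 (0.0839) was left out. Untrained 6 h replicate 2 had the highest value of Atf3, Fos, Egr1, Ccn1, Btg2 and Jun among the 3 exercised libraries.

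NR4A nuclear receptors, which induce genes of glucose and fat use in muscle, differed within the family. Nr4a3 was almost silent in sedentary muscle, at 0.0705, 0.396 and 0.115 TPM, and reached 6.03, 12.8 and 6.65 TPM at 6 h (log2 fold change 3.65 ± 0.26, adjusted p = 1.45e-06). It passed the expression filter only through the exercised libraries. Nr4a1 lay between 20.7 and 30.9 TPM in sedentary and between 18.5 and 31.2 TPM in exercised muscle, with overlapping groups and a log2 fold change of -0.12 ± 0.22 (adjusted p = 0.825). Nr4a2 lay below 1 TPM in 4 of the 6 libraries and was not called (adjusted p = 0.564). Among Kruppel-like factors 2 of 10 were called up. Klf5, a regulator of lipid and muscle genes, went from between 0.609 and 0.822 TPM to 2.14, 4.84 and 2.90 TPM (1.59 ± 0.20). It too passed the filter only through the exercised libraries. With only the 6 libraries in the model its adjusted p was 0.0514. Klf6 changed by 0.97 ± 0.21, with an adjusted p of 0.161 in that model and of 0.05 without sedentary replicate 2.

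Many genes of the Z-disc and of mechanosensing also rose. Ankrd1, a muscle ankyrin repeat protein that binds titin, was at 2.18, 2.68 and 1.63 TPM in sedentary and at 96.4, 175 and 68.8 TPM in exercised libraries (log2 fold change 5.33 ± 0.53, adjusted p = 2.44e-05). Xirp1, recruited to damaged myofibrils, had 14.8, 29.1 and 13.7 TPM before and 209, 330 and 223 TPM after exercise (3.74 ± 0.39). The muscle LIM protein gene Csrp3 had at most 77.1 TPM in sedentary and 538, 436 and 434 TPM in exercised muscle (2.95 ± 0.50). Flnc, the filamin of the Z-disc and the client of Bag3, lay between 40.4 and 43.1 TPM in the sedentary libraries and at 232, 302 and 262 TPM in the exercised libraries (2.64 ± 0.18). Klhl40, a stabiliser of thin filaments, went from between 28.5 and 31.6 TPM to 145, 206 and 136 TPM (2.40 ± 0.18), although it shares its locus with the antisense transcript Gm47108. Mustn1 changed by 3.20 ± 0.39 and the giant repeat protein Xirp2, already at 200 to 211 TPM, by 0.71 ± 0.09.

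In all, 9 of 19 tested members of this list were called up and 0 down, with a median log2 fold change of 0.80. All 9 held when any of the 6 libraries was left out, and 8 were called with only the 6 libraries in the model. The ankyrin repeat genes differed among themselves. Ankrd2 was at 50.1, 66.2 and 47.1 TPM in sedentary and at 266, 160.5 and 172 TPM in exercised muscle, whereas Ankrd23, named after its values were seen, had 554, 479 and 542 TPM against 475, 517 and 378 TPM and was not called. Enah, an actin elongation factor outside the lists, went from between 4.29 and 5.15 TPM to 36.8, 55.5 and 42.4 TPM (3.11 ± 0.27). Of contractile proteins themselves, 0 of 11 fast fibre genes and 0 of 19 genes of excitation-contraction coupling were called in either direction. Fast troponin Tnnt3 differed by 0.04 ± 0.06, the fast regulatory light chain Mylpf by -0.07 ± 0.08 and the calcium pump Atp2a1 by 0.10 ± 0.08.

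Among genes with the largest rises but outside the lists was Otud1, a deubiquitinase, with 1.41, 1.64 and 2.19 TPM in sedentary and 34.5, 88.3 and 33.7 TPM in exercised muscle (4.41 ± 0.45, adjusted p = 2.82e-05). Tnfrsf12a, the receptor of the cytokine TWEAK, was another. It had 10.8, 10.3 and 9.32 TPM before and 88.3, 115 and 93.3 TPM after exercise (3.22 ± 0.18, adjusted p = 3.89e-07).

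**Figure D3:**
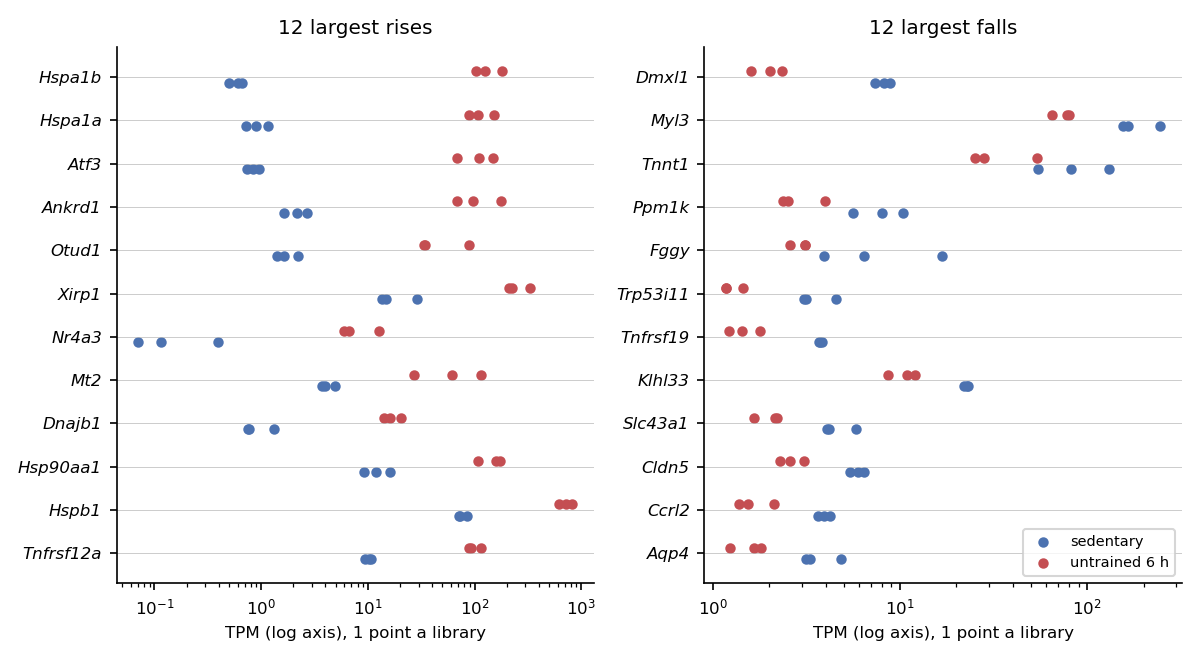
TPM in each library (log axis) of the 12 called protein-coding genes with the largest rise (left) and the largest fall (right) whose groups do not overlap, sedentary in blue and untrained 6 h in red. Rises span up to 2 orders of magnitude for Hspa1b, whereas falls such as that of Tnnt1 (54.8 TPM in the lowest sedentary, 53.8 TPM in the highest exercised library) are narrow.

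The coactivator gene Ppargc1a (PGC-1alpha) was at 3.04, 4.30 and 4.34 TPM in sedentary and at 22.3, 33.1 and 25.9 TPM in exercised muscle. The groups did not overlap, and the log2 fold change was 2.65 ± 0.20 (adjusted p = 1.99e-06). It was the only called member among 10 genes of its axis, whose median was 0.19. Its relative Ppargc1b was at -0.41 (adjusted p = 0.09), the partner receptor Esrra at 0.13 ± 0.06 (0.225), Esrrg at 0.17 ± 0.12 (0.433) and Esrrb at -0.11 ± 0.12 (0.667). Nuclear genes of complex I, targets of this axis, gave 0 calls in 37 members and a median of -0.03. Genes of the mitochondrial genome gave 0 calls in 13, and 1 of 22 genes of the TCA cycle was called. That gene, the mitochondrial isocitrate dehydrogenase Idh2, was lower, at 100, 119 and 136 TPM in sedentary and at 79.8, 57.2 and 59.2 TPM in exercised muscle (-0.86 ± 0.17), with an adjusted p of 0.076 with only the 6 libraries in the model. Coq8a, needed for ubiquinone synthesis, had the largest loss in TPM among the genes called down, from 573, 909 and 727 TPM to 383, 464 and 416 TPM (-0.79 ± 0.19). Its adjusted p was 0.104 in that model, 0.0829 without sedentary replicate 2 and 0.0523 without untrained 6 h replicate 3.

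Of genes for glucose uptake and glycogen, 4 of 18 were called up and 0 down. Hk2, the hexokinase that traps glucose in muscle, had 46.7, 50.3 and 50.5 TPM before and 119, 157 and 109.6 TPM after exercise (1.36 ± 0.24). Tbc1d1, which restrains GLUT4 transport until phosphorylated, went from 3.92, 6.30 and 7.35 TPM to 23.7, 16.3 and 20.9 TPM (1.73 ± 0.21). The branching enzyme gene Gbe1 (0.67 ± 0.13) and Ppp1r3c, a glycogen-targeting subunit (1.17 ± 0.29), were also called, the last with an adjusted p between 0.0518 and 0.0852 when sedentary replicate 1, sedentary replicate 2, untrained 6 h replicate 2 or untrained 6 h replicate 3 was left out and of 0.165 with only the 6 libraries in the model. Among glycolytic enzymes Pfkfb4, which makes the activator of phosphofructokinase, was up (1.202 ± 0.11), and Ldhb, the lactate dehydrogenase subunit of oxidative tissue, was down (-0.74 ± 0.18). Without sedentary replicate 2 or 3 or untrained 6 h replicate 2 or 3 the adjusted p of Ldhb lay between 0.0614 and 0.0859, and it was 0.181 with only the 6 libraries in the model.

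Genes of fatty acid use gave 1 call in 24, a share close to the background. Ucp3, the uncoupling protein of muscle, was at 38.5, 36.2 and 14.5 TPM against 74.5, 74.9 and 67.5 TPM (1.39 ± 0.39, adjusted p = 0.0389). Its call was lost without any of 5 of the libraries, all except sedentary replicate 1, with adjusted p between 0.051 and 0.138, and with only the 6 libraries in the model (0.154). Pdk4, which blocks pyruvate entry into mitochondria, had 181, 170.0 and 56.6 TPM in sedentary and 352, 440 and 299 TPM in exercised muscle. Its groups did not overlap, but with sedentary replicate 3 far below the others the change of 1.57 ± 0.63 had an adjusted p of 0.148.

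Genes known to respond to glucocorticoids were called up in 10 of 14 cases and down in 0, with a median of 0.94. Of the 10, 1 passed the filter only through the exercised libraries. The metallothioneins Mt1 and Mt2, which bind zinc and also answer to metals and oxidants, rose most. Mt2 was at 3.95, 4.88 and 3.69 TPM in sedentary and at 26.9, 61.4 and 114 TPM in exercised libraries (3.64 ± 0.42), and Mt1 at 6.51, 9.04 and 9.12 TPM and at 51.0, 62.5 and 122.0 TPM (3.09 ± 0.27). In both, untrained 6 h replicate 3 was the highest, and an antisense transcript, Gm45774, overlaps Mt2. Glul, the glutamine synthetase, had between 28.4 and 38.6 TPM before and 114, 151 and 98.8 TPM after exercise (1.85 ± 0.17), and the receptor cochaperone gene Fkbp5 had at most 4.27 TPM before and 9.99, 12.7 and 9.87 TPM after (1.30 ± 0.20). The receptor itself, Nr3c1, did not pass (-0.16, adjusted p = 0.6). With only the 6 libraries in the model 5 members were called, and 7 without sedentary replicate 2. Sult1a1, called at 0.63 ± 0.10, has an adjusted p of 0.0932 in that model, and fell under the size threshold without sedentary replicate 1 or 2 or untrained 6 h replicate 1 or 2.

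Clock genes, which oscillate with the time of day and of which some respond to glucocorticoids, moved in both directions. Of the negative limb, 2 of 11 were called up (Per2 and Cry2) and 2 down (Nr1d1 and Bhlhe40). Of activators and output genes 0 of 7 were called. Per2 passed the filter only through the exercised libraries. Per1, counted above with the glucocorticoid-responsive genes, was at 2.11, 1.19 and 2.73 TPM in sedentary and at 6.71, 7.37 and 4.94 TPM in exercised muscle (1.48 ± 0.26), Per2 at or below 0.616 TPM and at or above 1.36 TPM (1.198 ± 0.19), and Cry2 changed by 0.89 ± 0.15. Nr1d1, the repressor REV-ERBalpha, was lower in each exercised library, with 24.1, 31.2 and 27.4 TPM against 54.8, 53.8 and 51.2 TPM (-0.94 ± 0.15, adjusted p = 0.00141). Bhlhe40 had 28.3, 18.7 and 27.3 TPM before and 13.2, 12.8 and 13.9 TPM after exercise (-0.86 ± 0.19). The adjusted p with only the 6 libraries in the model was 0.0607 for Per1, 0.0628 for Per2, 0.0701 for Cry2 and 0.0727 for Bhlhe40, and that of Bhlhe40 was 0.0586 without sedentary replicate 1. Dbp, a sensitive output of the clock, was at 34.1, 17.3 and 20.9 TPM against 20.8, 16.1 and 9.39 TPM, with overlapping groups. The Per1 start carries the letters of a D-box, an element bound by Dbp and Nfil3, shown here in capitals (TTATGNAA, in 3.385% of all windows, GRCm38.p6).
Per1, chr11:69098917-69098940, plus strand: gcctggcaTTATGCAAcccgcctc

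Among 19 targets of NRF2, the regulator of antioxidant genes, 4 were called up and 0 down. Srxn1, which repairs peroxiredoxins, was at 4.49, 8.54 and 6.11 TPM in sedentary and at 47.2, 76.4 and 54.8 TPM in exercised muscle (3.14 ± 0.29, adjusted p = 1.19e-05). The haem oxygenase Hmox1 had between 2.27 and 2.56 TPM before and 6.61, 10.2 and 9.34 TPM after exercise (1.62 ± 0.15), and the thioredoxin reductase Txnrd1 changed by 1.07 ± 0.12. Osgin1 (0.93 ± 0.22) lost its call with only the 6 libraries in the model (adjusted p = 0.163) and without sedentary replicate 1 or 2 or untrained 6 h replicate 2 or 3 (0.0549 to 0.0753). The remaining 15 targets did not pass.

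AP-1 sites and the antioxidant element share letters. TGANTCA, searched on both strands of the same windows, was present in 36 of the 292 called-up genes with a window (12.329%), in 4 of 68 called-down genes (5.882%) and in 484 of 8145 tested genes (5.942%). The cyclic AMP response element TGACGTCA was in 11 of the 292 (3.767%) and in 3.659% of the tested genes. Of all 27025 genes with a window, tested or not, 8.973% held TGANTCA and 2.031% TGACGTCA. No test was made of these shares, and a match is not a bound site. Among named genes that hold a site, those of the most strongly raised are shown, with the match in capitals. Genes with larger rises, such as Hspa1b, Atf3 and Ankrd1, are not among them.
Srxn1, chr2:152105414-152105436, plus strand: ggagggccTGAGTCAccacgctg
Srxn1, chr2:152105471-152105493, plus strand: attcacccTGAGTCAgcggccgg
Mt2, chr8:94172531-94172553, plus strand: agggggtgTGACTCAgcgcgggg
Klhl40, chr9:121777555-121777577, plus strand: cccatagcTGACTCAaggctgct
Rcan1, chr16:92400174-92400196, minus strand: gcgggaccTGACTCAggaatttg
Bag3, chr7:128523555-128523577, plus strand: atagcctaTGACTCAgggcggag
Rcan1, chr16:92400238-92400261, minus strand: taaggtgtTGACGTCAcctctttc
All 7 are GRCm38.p6 coordinates, and the last is the cyclic AMP response element. Rcan1, the feedback inhibitor of calcineurin, holds both. It was at 23.0, 27.0 and 22.3 TPM in sedentary and at 118, 133 and 136 TPM in exercised muscle (2.40 ± 0.21, adjusted p = 7.38e-06).

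Protein quality control beyond the heat shock families moved less. Of the unfolded protein response of the endoplasmic reticulum, 3 of 17 genes were called up, namely the lumenal HSP70 Hspa5 (0.87 ± 0.14), the transcription factor Xbp1 (0.79 ± 0.10) and Dnajb9 (0.73 ± 0.11). With only the 6 libraries in the model Xbp1 had an adjusted p of 0.0585 and Dnajb9 of 0.0625. Of 10 ATF4 targets 3 were called up, led by Ddit4, an inhibitor of mTORC1 (1.78 ± 0.30), which alone was called in the model of 6 libraries. Ppp1r15a (0.82) had an adjusted p of 0.154 there. Atf4 itself (0.595) had one of 0.145, and it fell under the size threshold without sedentary replicate 1 or 2 or untrained 6 h replicate 2 or 3. Atrophy and FOXO genes gave 4 of 17. Gabarapl1, an autophagosome protein, had 19.2 ± 0.81 TPM (SD, n = 3) before and 52.5, 62.6 and 53.2 TPM after exercise (1.52 ± 0.15), and the proteasome lid gene Psmd11 between 26.6 and 29.9 TPM and between 54.6 and 59.0 TPM (0.96 ± 0.08). The autophagy receptor gene Sqstm1 was called (0.70 ± 0.16), but its adjusted p was 0.107 with only the 6 libraries in the model, 0.0571 without sedentary replicate 3 and 0.059 without untrained 6 h replicate 2. The transcription factor gene Foxo1 itself changed by 0.67 ± 0.11, with an adjusted p of 0.0646 in the model of 6 libraries. The ubiquitin ligases Trim63 (0.56, adjusted p = 0.056) and Fbxo32 (-0.09, 0.82) did not pass. Of the 30 subunits in the proteasome list, which does not hold Psmd11, 0 were called.

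Myogenic factors were called up in 3 of 17 cases. Besides Rcan1 these were Myod1, at 2.80, 4.21 and 6.21 TPM against 8.73, 15.8 and 14.8 TPM (1.49 ± 0.29), with an adjusted p of 0.0978 in the model of 6 libraries, and Myf6, at 26.5, 26.9 and 29.7 TPM against 50.1, 73.8 and 79.2 TPM (1.25 ± 0.15). At the neuromuscular junction 2 of 10 genes were called up, both of the agrin receptor complex. Musk, its kinase, had at most 2.69 TPM before and 5.89, 7.20 and 11.6 TPM after exercise (1.67 ± 0.22), and Dok7, the activator of that kinase, at most 3.61 TPM before and 8.08, 7.94 and 8.51 TPM after (1.23 ± 0.12). Of genes for polyamines and amino acid transport, 5 of 16 were called up and 1 down. The count of rises was 3 without sedentary replicate 2 and 2 in the model of 6 libraries. The glutamine transporter gene Slc38a2 changed by 1.47 ± 0.22, with an adjusted p of 0.0627 in the model of 6 libraries, and Odc1, the rate-limiting enzyme of polyamine synthesis, by 1.07 ± 0.18. Less stable were Azin1 (1.15, adjusted p = 0.107 in that model), Slc7a2 (1.07, 0.174 there and 0.0506 to 0.0786 without sedentary replicate 2 or untrained 6 h replicate 1 or 3) and Smox (0.83, 0.0918 to 0.117 without sedentary replicate 2 or 3 or untrained 6 h replicate 2 or 3). The leucine transporter gene Slc43a1 fell from 5.83, 4.19 and 4.07 TPM to 2.14, 2.21 and 1.66 TPM (-1.04 ± 0.21).

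Inflammatory genes were low and mostly not called. Of 7 tested chemokines and cytokines (16 were listed), 2 were called up, and both passed the filter only through the exercised libraries. Ccl2, which recruits monocytes, was at 0.119, 0.303 and 0.188 TPM against 1.37, 2.68 and 2.21 TPM (1.85 ± 0.23). Cxcl10 (1.27 ± 0.30) lies in the locus of the much more abundant gene Art3, and its adjusted p was 0.176 with only the 6 libraries in the model, 0.0634 without sedentary replicate 1 and 0.0581 without untrained 6 h replicate 2. NF-kB genes gave 1 of 7, its inhibitor Nfkbia (1.09 ± 0.13), and STAT3 pathway genes 1 of 7, Stat3 itself (0.70 ± 0.15). Stat3 lost its call at an adjusted p of 0.0628 in the model of 6 libraries and of 0.0513 when untrained 6 h replicate 3 was left out. Known myokines gave 0 of 9. Among angiogenic genes 1 of 17 was called, the inhibitor Thbs1, at 1.04, 1.48 and 1.41 TPM against 2.10, 5.73 and 3.26 TPM. Its adjusted p of 0.016 became 0.174 with only the 6 libraries in the model, 0.0675 without sedentary replicate 1 and 0.0594 without untrained 6 h replicate 2. Vegfa, the main angiogenic factor, was between 80.5 and 91.5 TPM in sedentary and between 83.7 and 94.1 TPM in exercised muscle.

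Summed markers of macrophages, fibro-adipogenic cells, tendon and adipocytes varied more between the exercised than between the sedentary libraries, and those of red blood cells, Schwann cells and pericytes less. The summed TPM of 14 macrophage markers was 46.2, 50.9 and 49.2 in sedentary and 41.6, 86.8 and 68.6 in exercised muscle. Replicate 2 of untrained 6 h was the highest, and the groups overlapped. Of 8 tested markers 2 were called up, Cd68, a lysosomal membrane protein (1.04, 1.60 and 1.22 against 4.36, 6.82 and 4.01 TPM, 1.62 ± 0.20), and Csf1r (0.61 ± 0.16), which overlaps Hmgxb3 and lost its call in 4 of the 6 comparisons with a library left out (adjusted p 0.0565 to 0.0919) and with only the 6 libraries in the model (0.251). Without untrained 6 h replicate 1 as many as 6 of the 8 were called. The defining marker Adgre1 (F4/80) was under 1 TPM in every library and was not tested. Of neutrophil markers 0 of 10 and of T and B cell markers 0 of 9 reached the filter, and Ly6g was listed at 0 in all 6 libraries. The sum of tendon markers was 34.0, 127 and 63.9 TPM in exercised and between 42.7 and 60.1 TPM in sedentary muscle, with 0 of 6 called, and that of adipocyte markers reached 147.5 TPM in untrained 6 h replicate 3, against at most 77.8 TPM elsewhere. The part of these cells in the results above was not tested.

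Endothelial markers gave 1 call in each direction among 10. Their summed level was 266, 288 and 307 TPM in sedentary and 384, 466 and 402 TPM in exercised muscle, without overlap. This sum includes the rise of Rgcc. The median log2 fold change of the 10 was 0.16, with 7 higher and 3 lower. Rgcc, a cell cycle regulator, was at 15.6, 17.3 and 15.2 TPM in sedentary and at 67.6, 126 and 62.3 TPM in exercised muscle (2.30 ± 0.20), whereas Cldn5, the tight junction claudin, was at 6.44, 5.38 and 5.99 TPM against 3.08, 2.57 and 2.27 TPM (-1.04 ± 0.27). The call of Cldn5 was lost without any library except untrained 6 h replicate 1 (adjusted p 0.0571 to 0.0918). Of the remaining lists, fibro-adipogenic markers gave 1 of 10 (Ly6a, 0.62 ± 0.13, adjusted p = 0.132 with only the 6 libraries in the model and under the size threshold without sedentary replicate 1 or untrained 6 h replicate 2 or 3) and adipocyte markers 1 of 6 (Plin4, which muscle fibres also express). Pericyte, satellite cell, red blood cell and Schwann cell markers gave 0 of 9, 0 of 3, 0 of 5 and 0 of 3.

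Falls were fewer and smaller, and slow fibre genes stood out among the lists. The summed level of 10 slow fibre contractile genes was 885, 835 and 1367 TPM in sedentary and 552, 624 and 487 TPM in exercised muscle. Every exercised library lay below every sedentary library, and sedentary replicate 3 was far above the other two. Of 9 tested members 8 were lower after exercise, with a median log2 fold change of -1.07, and 2 were called down. Myl3, the essential light chain of slow myosin, was at 155, 166 and 246 TPM against 79.7, 77.8 and 65.0 TPM (-1.32 ± 0.27, adjusted p = 0.00656), and its call held without any single library. Tnnt1, slow troponin T, had 82.1, 54.8 and 131 TPM before and 25.1, 53.8 and 28.2 TPM after exercise (-1.30 ± 0.38, adjusted p = 0.0461). It was lost with only the 6 libraries in the model (adjusted p = 0.209) and without sedentary replicate 1 or 3 or untrained 6 h replicate 1 or 3 (0.103 to 0.16). Slow myosin heavy chain, Myh7, ranged from 33.2 to 89.4 TPM in sedentary and from 16.4 to 35.8 TPM in exercised muscle, with overlapping groups and an adjusted p of 0.28. The usable untrained 0 h libraries were already below every sedentary library, with 85.4 and 97.0 TPM of Myl3 and 32.15 and 44.4 TPM of Tnnt1. Between 6 h and 0 h, 0 of the 9 were called, and the median difference was -0.0893. Against trained 6 h and untrained 72 h muscle the medians were -1.12 and -0.527, also with 0 calls. How much of the slow, deep part of the quadriceps each sample held is not given in the sources used here, and its part in these values was not tested. Summed over 11 fast fibre genes, the ratio of the exercised to the sedentary mean was 0.997.

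**Figure D4:**
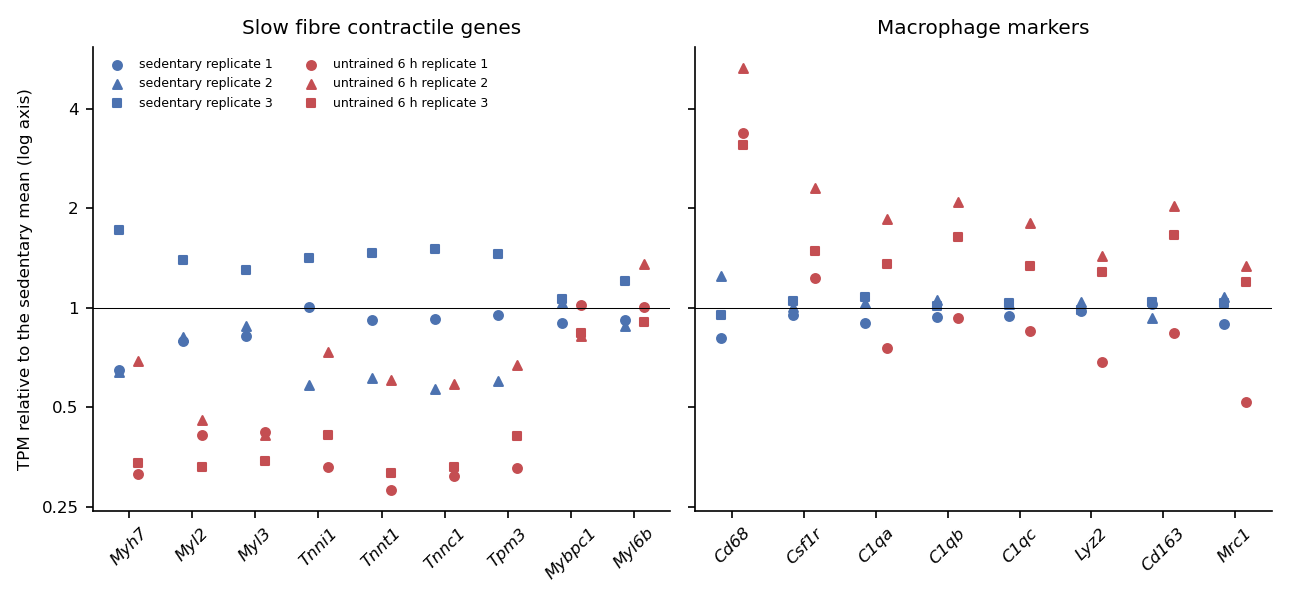
TPM in each library relative to the sedentary mean of the gene (log axis) for slow fibre contractile genes (left) and macrophage markers (right), with blue for sedentary, red for untrained 6 h and the marker shape for the replicate. Among the sedentary libraries replicate 3 is the highest for every slow fibre gene at left, and untrained 6 h replicate 2 is the highest for every macrophage marker at right, where Cd68 and Csf1r have all 3 exercised libraries above all 3 sedentary libraries.

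Other named falls were spread over unrelated functions. Tnfrsf19, a receptor of the TNF family, was at 3.75, 3.84 and 3.68 TPM in sedentary and at 1.43, 1.22 and 1.78 TPM in exercised muscle (-1.12 ± 0.11). Klhl33 had between 21.9 and 23.2 TPM before and 12.0, 10.8 and 8.65 TPM after exercise (-1.09 ± 0.14), and the semaphorin gene Sema6c between 34.7 and 38.4 TPM and between 17.2 and 18.5 TPM (-0.98 ± 0.10). The calls of these 3 genes held in each fit with a library left out and with only the 6 libraries in the model. Aqp4, the water channel of fast fibres, changed by -1.03 ± 0.18 (adjusted p = 0.0629 in that model). Dmxl1, the largest fall among called protein-coding genes (7.31, 8.79 and 8.18 TPM against 1.59, 2.02 and 2.36 TPM, -1.79 ± 0.49), was called at an adjusted p of 0.0349 but lost when any of the 6 libraries was left out (0.0684 to 0.103). Ppm1k, the phosphatase that activates branched-chain amino acid oxidation, was lost without 4 of them (0.057 to 0.0917), and Fggy, with 16.7 TPM in sedentary replicate 1 and 6.43 and 3.94 TPM in the other two, without 4 of them as well (0.0508 to 0.0645). Srebf1, the regulator of lipid synthesis, was the only call among 13 cholesterol genes (-0.68 ± 0.19). It was lost without any library except untrained 6 h replicate 2 (adjusted p 0.065 to 0.11) and with only the 6 libraries in the model (0.174).

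Several groups gave no call at all. These were ribosome biogenesis (0 of 22), splicing and cold-inducible factors (0 of 22), interferon-stimulated genes (0 of 10) and the lists named above. With a library left out, up to 3 ribosome biogenesis genes (without untrained 6 h replicate 1) were called up and 1 splicing gene (without untrained 6 h replicate 1 or 2) down. For 2 more lists calls were at the margin of the background, with 1 up of 20 for tRNA synthetases (Eprs, 0.63 ± 0.07), and 1 up and 1 down of 19 for collagens and matrix. The collagen chaperone Serpinh1 was the rise (1.05 ± 0.23), whose adjusted p was 0.0862 in the model of 6 libraries and 0.0507 when untrained 6 h replicate 2 was left out, and Col5a3 the fall (-0.88 ± 0.18), with 0.074 in the model of 6 libraries. Of p53 and growth arrest genes 2 of 12 were called up, Cdkn1a (1.14 ± 0.18, adjusted p = 0.0742 in the model of 6 libraries) and Gadd45a (0.76 ± 0.14, 0.0932), and of signalling feedback genes 1 of 11, the kinase gene Sik1 (0.94 ± 0.22, 0.212), which was also lost without sedentary replicate 1 or 2 or untrained 6 h replicate 2 (0.0581 to 0.0637). Of 13 genes listed from those that the study names, 3 were called here, Fos, Klf5 and Ppargc1a. Motifs that it names outside these 13 include Jun, Atf3 and Egr1, whose genes were called above, and Nr4a2, whose gene was not. The study showed Klf5 for its expression in these samples, so that its direction is not independent evidence. It showed Fos and Ppargc1a for chromatin accessibility, and Fos also for predicted motif activity.

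Whether these levels were particular to untrained muscle at 6 h was asked by direct comparison with trained muscle at 6 h and with untrained muscle at 0 h and 72 h in the same model. All 3 comparisons share the exercised libraries with the comparison above. Against trained 6 h muscle 169 genes were higher (1.43% of those tested) and 62 lower (0.526%). Of the 412 genes called up against sedentary muscle, 118 (28.6%) were higher and 1 lower, an overlap that the shared libraries favour. Heat shock genes showed the widest gap. Hspa1b was at 7.93, 2.51 and 2.25 TPM in trained 6 h libraries, and Hspa1a at 8.74, 4.03 and 4.14 TPM. On the log2 scale untrained exceeded trained muscle by 5.01 ± 0.40 for Hspa1b, 4.29 for Hspa1a and 3.35 for Dnajb1. In the HSP70 and HSP90 list 11 of 24 members were higher in untrained muscle and 0 lower, and 5 of 7 small heat shock proteins were higher. Of the mechanosensing list, 8 of 19 were higher, with 3.90 for Ankrd1 and 2.65 for Csrp3. The trained libraries were uneven in these genes. Ankrd1 was at 20.5, 5.22 and 2.47 TPM, Atf3 at 32.5, 6.94 and 3.56 TPM and Csrp3 at 196, 77.3 and 26.6 TPM in trained replicates 1, 2 and 3. With only the untrained 6 h and trained 6 h libraries in the model, 17 genes were higher and 7 lower. Hspa1a (adjusted p = 0.027), Hspa1b (0.047) and Dnajb1 (0.00416) were among those still called, whereas Ankrd1 (0.197), Atf3 (0.229), Csrp3 (0.27) and Otud1 (0.159) were not. Rescaling as above gave 147 higher and 121 lower, and protein-coding nuclear genes alone 119 and 140. The last setting moved the median log2 difference of all genes from 0.04 to -0.07. Leaving out untrained 6 h replicate 1 gave 351 genes higher, and leaving out replicate 2 gave 102. Without any of the trained 6 h libraries in turn, 122 to 162 genes were higher and 52 to 58 lower.

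Other members did not separate the training states. Glucocorticoid-responsive genes gave 0 calls of 14 between untrained and trained muscle at 6 h, with differences of 0.33 for Mt2, 0.33 for Mt1 and 0.03 for Glul, and Ppargc1a was at 38.9 ± 9.7 TPM (SD, n = 3) in trained and at 27.1 ± 5.5 TPM in untrained muscle (difference -0.50, adjusted p = 0.17). These are not shown to be equal, since a p above the threshold leaves a difference possible. The partner receptors of PGC-1alpha were lower in untrained muscle. Esrrg was at 11.9, 10.9 and 9.15 TPM in trained 6 h libraries and between 3.60 and 5.01 TPM in untrained (difference -1.24, adjusted p = 8.24e-05), and Esrrb differed by -0.91. With only these 2 groups in the model the adjusted p was 0.0818 for Esrrg and 0.0633 for Esrrb. Nr1d1, lower than sedentary in untrained muscle, was lower still in trained muscle, at 15.2, 13.7 and 9.97 TPM (difference 1.08, adjusted p = 0.00142, and 0.159 with only these 2 groups in the model).

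Compared to untrained muscle at 0 h, of which 2 libraries could be used, 225 genes were higher at 6 h (1.91%) and 249 lower (2.11%). The 412 genes called up against sedentary muscle included 154 (37.4%) that were higher and 22 that were lower than at 0 h. Protein-coding nuclear genes alone turned the split of all tested genes to 263 higher and 172 lower. Early response genes lay on the lower side. Of the AP-1 and ATF list 6 of 9 were lower at 6 h than at 0 h and 0 higher. Fos was at 72.6 and 84.1 TPM at 0 h (difference -2.75, adjusted p = 0.00842), Nr4a1 differed by -2.77 and Nr4a2 by -5.59. The mechanosensing list lay on the higher side, with 11 of 19 members higher at 6 h and 0 lower, 4.38 for Ankrd1, 2.90 for Xirp1 and 2.80 for Csrp3. Srxn1, at 5.79 and 5.44 TPM at 0 h, differed by 3.26, and Ppargc1a, at 4.34 ± 1.3 TPM (SD, n = 2), by 2.52 ± 0.22. Heat shock genes split. Hspa1b was already at 121.0 and 120.4 TPM at 0 h and did not differ beyond its spread (0.13, adjusted p = 0.91), Dnajb1 was higher at 0 h, at 63.5 and 60.4 TPM (-1.86), and Hspb1 was higher at 6 h (1.32). With only the 0 h and 6 h libraries in the model, 34 genes were higher and 17 lower. Xirp1 (adjusted p = 0.0374) and Srxn1 (0.0314) were then still called, Ankrd1 (0.0587), Csrp3 (0.0587), Ppargc1a (0.0587) and Fos (0.0988) were not. Leaving out 0 h replicate 2 gave 152 genes higher and 141 lower, and replicate 3 gave 138 and 166, with the lone 0 h library assumed to vary like the other groups. Fos was lost in both cases (adjusted p up to 0.0822), and Csrp3 (0.0945) and Hspb1 (0.0698) without replicate 2.

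The last comparison was with 72 h. At 6 h, 340 genes were higher than at 72 h (2.88%) and 127 lower (1.08%), or 335 and 206 after rescaling. Hspa1b was at 0.724, 0.854 and 0.789 TPM at 72 h, Atf3 between 1.97 and 2.62 TPM, and Ankrd1 between 3.65 and 5.62 TPM. The differences of 6.68 for Hspa1b, 5.23 for Atf3 and 4.47 for Ankrd1 were called also with only the 2 groups in the model. Of the 412 genes called up against sedentary muscle, 292 (70.9%) were called higher than at 72 h, and 63 were called higher in all 3 comparisons. Mustn1, at 80.7 ± 9.6 TPM (SD, n = 3) at 72 h, was among those not called against 72 h (difference 1.25). So was Cd68, at 4.71 ± 1.1 TPM (difference 0.08).

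**Figure D5:**
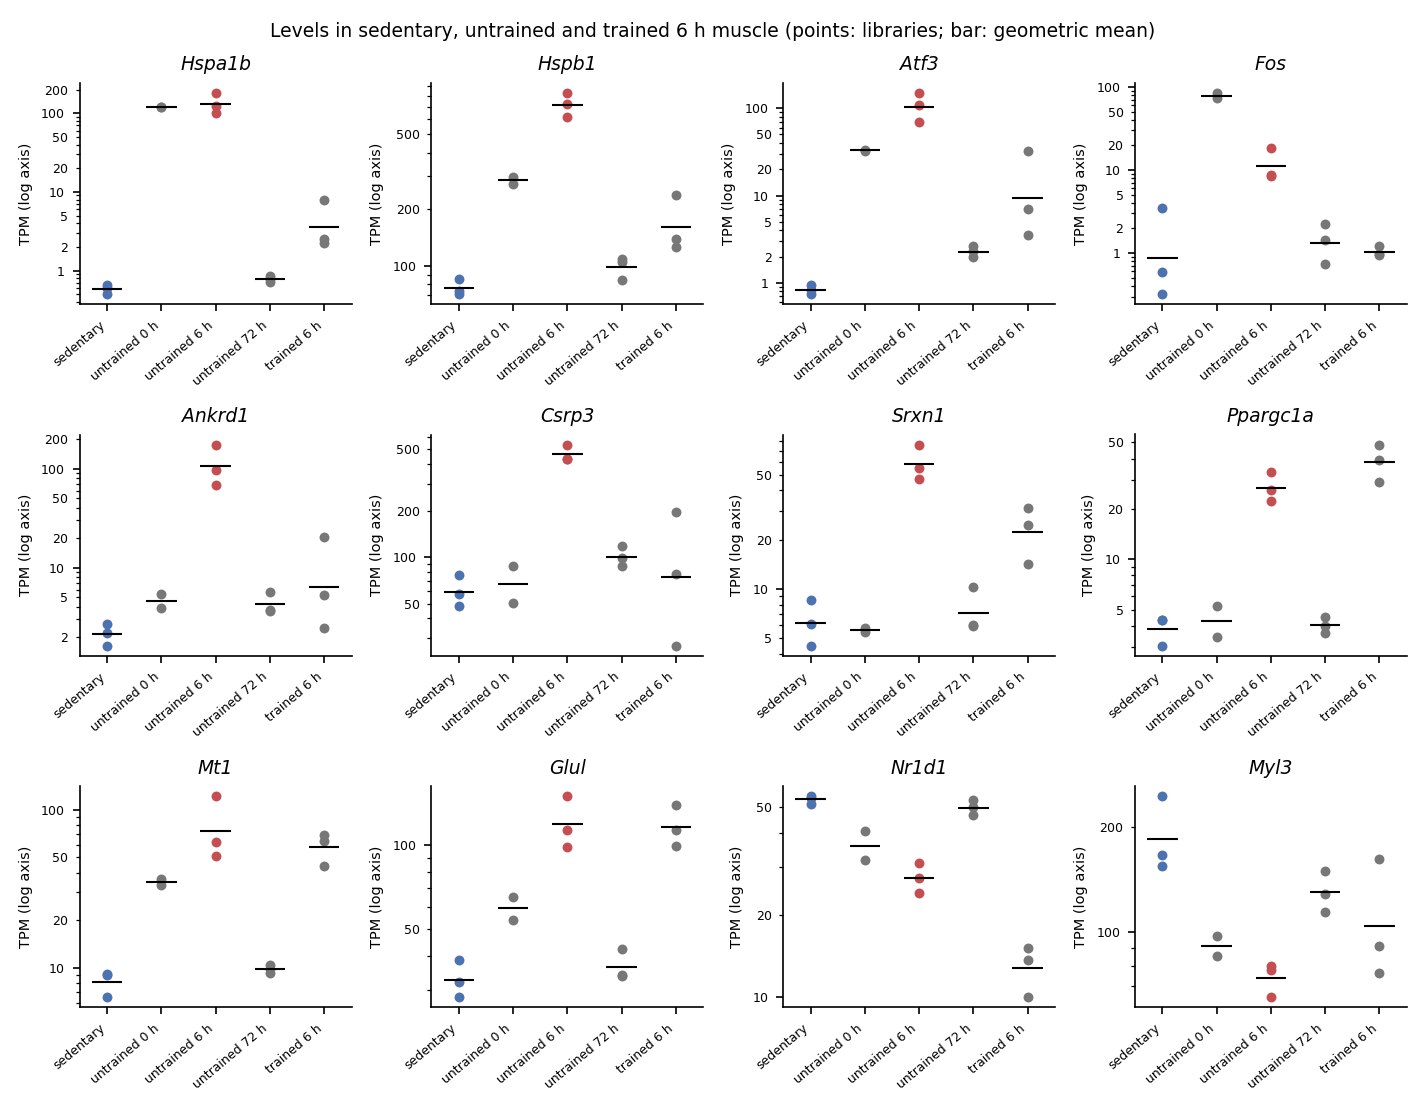
TPM (log axis) of 12 genes in sedentary (blue), untrained 6 h (red) and, in grey, untrained 0 h (2 libraries), untrained 72 h and trained 6 h muscle, with 1 point for each library and a bar at the geometric mean. Hspa1b is high in untrained muscle at 0 h and 6 h and lower, though above sedentary, in trained 6 h muscle. Ankrd1, Csrp3 and Srxn1 peak at 6 h among the untrained groups. Ppargc1a and Glul lie above sedentary in both untrained and trained 6 h muscle, and neither was called between these groups.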

How the data were processed

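The authors aligned paired-end reads of total RNA (TruSeq v2, a kit that does not mark strand) with STAR 2.7.9 to GRCm39, quantified them with Salmon 1.5.0 and deposited 1 table of TPM values for 53738 gene symbols and 21 libraries. TPM keeps no depth, so depth is unknown and no counting interval is given. The columns of untrained 0 h and trained 0 h replicate 1 are identical and both were left out, which leaves 19 libraries in 7 groups.

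Values were transformed to log2(TPM + 0.5), filtered at a mean of 1 TPM over the 6 libraries and fitted with limma 3.58.1 (trend, R 4.3.3), with contrasts of group means and Benjamini-Hochberg adjustment over all 11798 tested genes. Calls needed an adjusted p below 0.05 and a fold of at least 1.5. Named genes were, among called protein-coding nuclear genes, the 12 largest rises and falls with groups that do not overlap and the 8 largest gains and losses in TPM, and beyond these up to 6 called members of each list by adjusted p (for lists with fewer than 2 calls, the 3 most abundant members), genes the study names, and the 6 largest differences shared with each direct comparison. Hspb2, Hspb3, Hspe1, Hsph1, Ankrd23, Ppargc1b, Nr3c1, Trim63, Fbxo32 and Myh7 were named after their values were seen. The comparisons and lists were chosen with earlier results of these data known. Nothing in the labels says that replicates came from separate animals, so p-values measure the spread between these samples. Alternatives changed the pseudocount, filter, scaling, variance model, samples and replicate block. The fitting was tested on simulated data. Figures were drawn with matplotlib 3.10.9.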

Additional observations from a re-analysis of the deposited data

Results flagged for a closer look

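The differences below are differences in level between training states or between times after the same treadmill protocol, each tested as a direct contrast with limma. No rested trained group was compared, so differences between training states at rest, in the work done and in the response to it cannot be told apart. Trained muscle at 72 h had 15.3, 9.40 and 15.1 TPM of Csrp3, against at least 48.3 TPM in sedentary muscle. All of them share the untrained 6 h libraries. Between untrained and trained muscle at 6 h, 169 genes were higher and 62 lower in untrained muscle, and the largest named differences on the log2 scale were 5.01 for Hspa1b, 4.29 for Hspa1a, 3.90 for Ankrd1, 3.74 for Otud1, 3.38 for Atf3 and 3.35 for Dnajb1. Of these, Hspa1a, Hspa1b and Dnajb1 were also called with only these 2 groups in the model.

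Between 6 h and 0 h of untrained muscle, 225 genes were higher and 249 lower at 6 h, with differences of 4.38 for Ankrd1, 3.26 for Srxn1, 2.90 for Xirp1, 2.88 for Enah, 2.80 for Csrp3 and -3.03 for the endothelial repressor gene Bcl6b. Bcl6b passed the expression filter only through the sedentary libraries. With only these 2 groups in the model, Ankrd1 and Csrp3 (adjusted p = 0.0587 each) were not called.

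Between 6 h and 72 h of untrained muscle, 340 genes were higher and 127 lower at 6 h, with differences of 6.68 for Hspa1b, 6.32 for Hspa1a, 5.23 for Atf3, 4.47 for Ankrd1, 3.98 for Xirp1 and 3.95 for Otud1.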

How the results depend on the processing

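Counts of calls against sedentary muscle moved with the threshold and the model. A mean of at least 5 TPM gave 264 genes up and 48 down, a model of these 6 libraries alone 187 and 43, no threshold on the fold change 793 and 321, and a treat test against a fold of 1.2 gave 221 and 26. Rescaling without the mitochondrial genome and the top 10 genes gave 183 down. Leaving out single libraries gave 311 to 552 up and 66 to 108 down. For untrained against trained 6 h muscle the same settings gave, in the order 5 TPM, only these groups, no fold threshold and treat, 112, 17, 365 and 69 genes higher and 26, 7, 206 and 23 lower. Rescaling gave 121 lower, protein-coding nuclear genes alone 140 lower, and leaving out single libraries 102 to 351 higher and 50 to 65 lower. Against 0 h they gave 141, 34, 342 and 118 higher and 105, 17, 503 and 108 lower, with 138 to 285 and 141 to 284 when single libraries were left out. Against 72 h, only these groups, no fold threshold and treat gave 152, 626 and 182 higher, the 4 settings gave 63, 52, 445 and 31 lower, rescaling gave 206 lower, and single libraries left out gave 270 to 450 higher and 90 to 165 lower. Leaving out the trained 6 h, 0 h and 72 h libraries was chosen after seeing the data. Fewer genes tested and fewer residual degrees of freedom belong to the construction of the first 2 settings, and otherwise the cause was not tested. Of the 111 named genes called, 55 kept their call under every alternative and 0 reversed. With the replicate number as a block, 407 genes were up and 92 down, and Smox (adjusted p = 0.0516) and Tnnt1 (0.0742) lost their call. After the group mean of each gene was subtracted, correlations between same-numbered sedentary and untrained 6 h samples were 0.0862, -0.0144 and 0.0523. On these deviations, 3 of 6 libraries correlated best with their own number. With 3 libraries in each group, this cannot show whether same-numbered samples share more than a number.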
